A study of Mus musculus with 10 samples.

Results

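The 9 genes described here carry insulin-like growth factor (IGF) and insulin signals: the ligands Igf1 and Igf2, the receptors Igf1r, Insr, Igf2r and Ghr, the adaptors Irs1 and Irs2, and the adaptor Grb10. They were listed by name, with earlier results of these data known, from the 23924 usable gene symbols of each of 2 expression tables, and all 9 are in both tables. In this system IGF1 and IGF2 bind the receptor tyrosine kinase IGF1R, and insulin binds its close relative INSR, which also takes up IGF2. The active receptors phosphorylate the adaptors IRS1 and IRS2, which pass the signal to PI3K-AKT and to the MAPK cascade. IGF2R, the cation-independent mannose-6-phosphate receptor, has no kinase and carries IGF2 to lysosomes. GHR, the growth hormone receptor, drives Igf1 transcription through STAT5B in liver and other tissues, and GRB10 binds active IGF1R and INSR and dampens them. Igf2, Igf2r and Grb10 are imprinted in mice.

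The study concerns IGF1 made within pancreatic tumours whose driving oncogene is off. RNA came from whole pieces of frozen mouse pancreatic tumour, transplanted orthotopically into athymic nude hosts, which lack mature T cells but keep macrophages, fibroblasts and B cells. The tumours were of models labelled KrasT and MycT, and hosts were left untreated (0 days) or were given doxycycline, the drug that controls tetracycline-dependent transgenes, for 14 days at 100 ug/ml in water with 2.5% sucrose. Libraries numbered 3 untreated and 3 doxycycline for KrasT, and 2 untreated and 2 doxycycline for MycT. The labels do not state the alleles, the promoter of a transgene, host age, or whether tumours of a model came from 1 line, and name no sucrose for untreated hosts. Effects of the oncogene, of doxycycline and of sucrose therefore cannot be told apart. Since only animal numbers separate the tumours, p-values measure the spread between these tumours. In such bulk tissue, fewer cells of a type and less RNA per cell cannot be told apart.

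Values are FPKM, fragments scaled to gene length and library, so levels are compared per length, and the read depth is unknown. Relative depth, read from the steps between low values, lay between 0.756 and 1.188 in KrasT and between 0.621 and 1.0 in MycT. The sum of FPKM was higher in every untreated library than in any doxycycline library of its model. Untreated KrasT replicate 1 was the least like its group: it correlated with the others at 0.828 and 0.844, and they with each other at 0.968. The ribosomal RNA gene Rn45s was above 10000 FPKM in KrasT doxycycline replicate 1 and MycT doxycycline replicate 2. One untreated MycT library carries a number that no label has, and is called the unnumbered library below. Keratins and other epithelial genes were present in all libraries, but their sum set the KrasT groups apart, with 2360 to 19000 FPKM untreated and 287 to 1890 FPKM after doxycycline. In untreated KrasT replicate 1, Krt8 (680 FPKM) and Krt18 (1500 FPKM) made up most of the sum. Only 2 of the 10 genes were lower in every doxycycline than in any untreated KrasT library, against 23.0% of all genes. In MycT the sums were 502 and 1710 FPKM untreated and 2070 and 951 FPKM after doxycycline.

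Promoter windows are shown for the 3 members whose levels moved most between groups or in opposite directions in the models, since they differ in base composition. Each is the 250 bases before a RefSeq start site (GRCm38.p6), 5′ to 3′ on the gene's strand, with CpG pairs in capitals. The Igf1 window lies at chr10:87860861-87861110 (+ strand), the Igf1r window at chr7:67952007-67952256 (+ strand) and the CpG-rich Grb10 window at chr11:12037421-12037670 (- strand).
Igf1: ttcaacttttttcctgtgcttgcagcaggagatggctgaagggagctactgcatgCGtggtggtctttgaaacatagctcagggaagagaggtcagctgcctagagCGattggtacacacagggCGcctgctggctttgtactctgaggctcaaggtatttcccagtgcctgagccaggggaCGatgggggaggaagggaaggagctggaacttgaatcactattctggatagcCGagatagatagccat
Igf1r: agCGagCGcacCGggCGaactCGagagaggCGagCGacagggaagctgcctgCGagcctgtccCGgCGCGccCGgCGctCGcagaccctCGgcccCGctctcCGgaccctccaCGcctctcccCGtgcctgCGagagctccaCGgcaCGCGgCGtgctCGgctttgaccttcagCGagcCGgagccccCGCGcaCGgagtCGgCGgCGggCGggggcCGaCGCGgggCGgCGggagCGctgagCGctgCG
Grb10: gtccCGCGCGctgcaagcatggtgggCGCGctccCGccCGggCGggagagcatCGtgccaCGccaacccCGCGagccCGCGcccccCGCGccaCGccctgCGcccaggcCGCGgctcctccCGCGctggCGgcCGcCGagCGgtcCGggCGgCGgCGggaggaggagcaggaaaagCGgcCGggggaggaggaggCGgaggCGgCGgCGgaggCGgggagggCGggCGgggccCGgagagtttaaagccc
The Igf1 window held 5 CpG pairs, against a median of 6.0 over 32851 RefSeq windows of the same length, and 49.6% of all windows held as few or fewer. The Igf1r window held 42 and the Grb10 window 40, while a second Grb10 window at chr11:12027972-12028221 held 8. Motifs were searched on both strands: the E-box CACGTG (present in 6.02% of all windows), the STAT site TTCNNNGAA (7.02%), the FOXO site GTAAACA (3.17%) and the GC box GGGCGG (32.7%). None of these was in the Igf1 window. GC boxes occurred 2 times in the Igf1r window and 5 times in the Grb10 window above, where the pair nearest the start site overlap each other. The E-box was found upstream of Igf2r, Irs1 and Irs2, and neither the STAT site nor the FOXO site in any of the 13 windows of the 8 matched members.

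Among the ligands, Igf1 rose in KrasT tumours after doxycycline. Its FPKM was 0.843, 1.11 and 1.15 in untreated replicates 1 to 3, and 47.5, 38.9 and 42.1 in doxycycline replicates 1 to 3. The groups did not overlap, and the doxycycline libraries lay within 1.22-fold of each other. The mean went from 1.04 ± 0.169 to 42.8 ± 4.33 FPKM (SD, n = 3 each), a 41.3-fold difference. On the log2(FPKM + 1) scale doxycycline minus untreated was 4.43 ± 0.24 (SE; limma adjusted p = 0.000982). This passed in all 6 fits that left out 1 library. Fold changes of low genes are understated on this scale.

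In MycT tumours Igf1 was 1.59 FPKM in untreated replicate 2 and 2.13 FPKM in the unnumbered library. It was 8.56 and 18.3 FPKM in doxycycline replicates 1 and 2. Both doxycycline values were above both untreated ones, but they differed 2.13-fold from each other. The means were 1.86 ± 0.383 and 13.4 ± 6.86 FPKM (SD, n = 2 each), 7.2-fold apart. The log2 change of 2.25 ± 0.47 (SE) did not pass within the MycT table (limma adjusted p = 0.0698). With the spread shared over both tables it passed, at an adjusted p of 0.00739, and it also passed there without any 1 MycT library.

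Igf2, the fetal growth ligand, was much lower than Igf1 after doxycycline in KrasT. Untreated KrasT replicates held 1.25, 0.318 and 0.522 FPKM, and doxycycline replicates 1.59, 6.56 and 2.2 FPKM. All doxycycline values were higher, with replicate 2 well above the others, and the log2 change was 1.27 ± 0.45 (limma adjusted p = 0.0993). In MycT it was 2.79 and 0.291 FPKM untreated and 2.4 and 0.495 FPKM after doxycycline, so the groups overlapped (log2 change 0.03 ± 0.71, limma adjusted p = 0.983). The Igf1 to Igf2 ratio was 0.675 to 3.5 in untreated and 5.93 to 29.8 in doxycycline KrasT libraries. In MycT the ratio overlapped between groups, with 0.57 and 7.33 untreated and 3.57 and 36.8 after doxycycline. The antisense transcript Igf2os was at most 0.0879 FPKM in any library. It is not known whether counting used strand, so reads of Igf2 and Igf2os cannot be told apart.

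**Figure D1:**
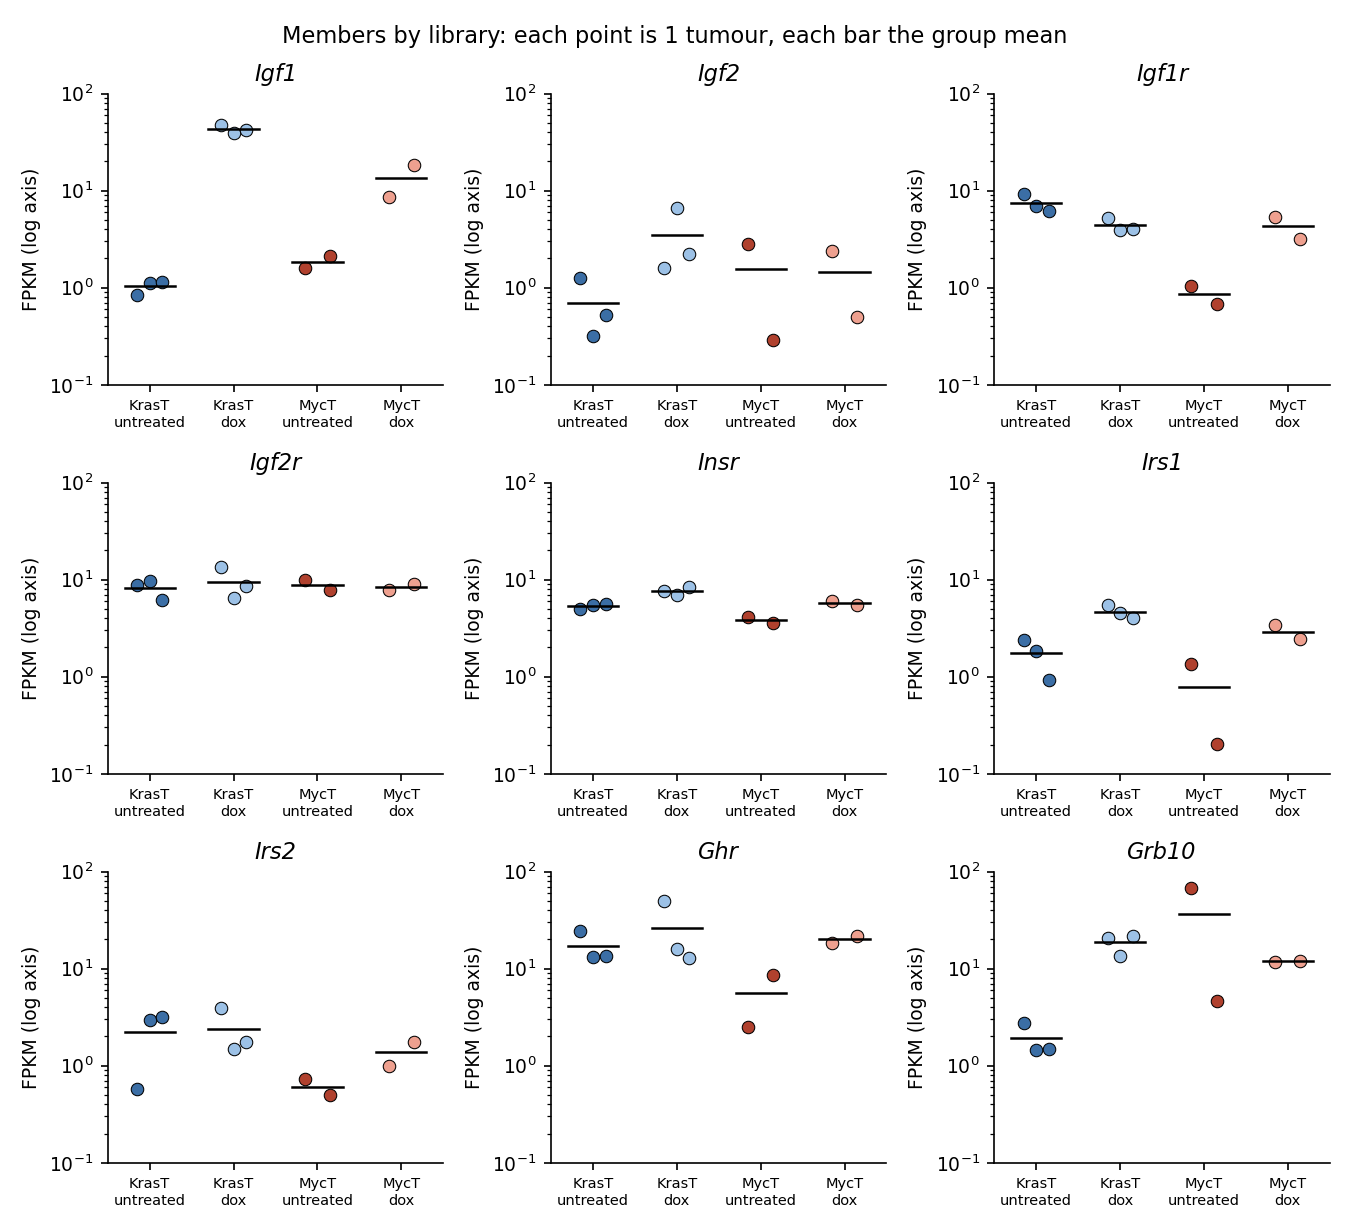
FPKM of each of the 9 genes in every library (log axis), with points for libraries and bars for group means. Igf1 and Grb10 show the widest gaps between KrasT groups, from 1.04 to 42.8 FPKM and from 1.91 to 18.7 FPKM, while Igf1r lies lower after doxycycline in KrasT and higher in MycT.

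Igf1r, the receptor that binds IGF1, had opposite orders in the models. In KrasT it was 9.27, 6.91 and 6.12 FPKM untreated and 5.19, 3.93 and 4.0 FPKM after doxycycline. Every doxycycline library was below every untreated one, with means of 7.44 ± 1.64 and 4.37 ± 0.707 FPKM (SD, n = 3 each). The log2 change of -0.64 ± 0.27 did not pass (limma adjusted p = 0.148). In MycT the level was 1.04 FPKM in untreated replicate 2, 0.682 FPKM in the unnumbered library, and 5.38 and 3.2 FPKM in the doxycycline replicates. There both doxycycline values were the higher ones, with means of 0.861 ± 0.254 and 4.29 ± 1.54 FPKM (SD, n = 2 each), 4.99-fold apart. The log2 change of 1.48 ± 0.39 did not pass within the table (limma adjusted p = 0.0869) but passed in the fit over both tables (adjusted p = 0.02). That call was lost without untreated replicate 2 (log2 change 1.62), without the unnumbered library (1.34) and without doxycycline replicate 1 (1.18).

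Insr, the insulin receptor, was nearly level within each group. Its FPKM was 4.92, 5.49 and 5.59 in untreated KrasT and 7.66, 7.01 and 8.41 after doxycycline. In MycT it was 4.1 and 3.54 FPKM untreated and 6.01 and 5.51 FPKM after doxycycline. The doxycycline libraries were the higher ones in both models, by 1.44-fold and 1.51-fold, and neither difference passed (limma adjusted p = 0.226 and 0.348). The ratio of Igf1r to Insr was 1.88, 1.26 and 1.1 in untreated KrasT and 0.677, 0.56 and 0.476 after doxycycline, so the receptor in excess per length was Igf1r before and Insr after. In MycT the ratio was 0.254 and 0.193 untreated and 0.895 and 0.581 after doxycycline, with Insr in excess throughout. The two-sided exact permutation p for this ratio was 0.1 in KrasT and 0.333 in MycT, the smallest that 3 against 3 and 2 against 2 allow. Summed, Igf1r and Insr were 11.7 to 14.2 FPKM in untreated and 10.9 to 12.8 FPKM in doxycycline KrasT libraries, which overlap. In MycT the sum was 5.14 and 4.22 FPKM untreated and 11.4 and 8.72 FPKM after doxycycline.

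**Figure D2:**
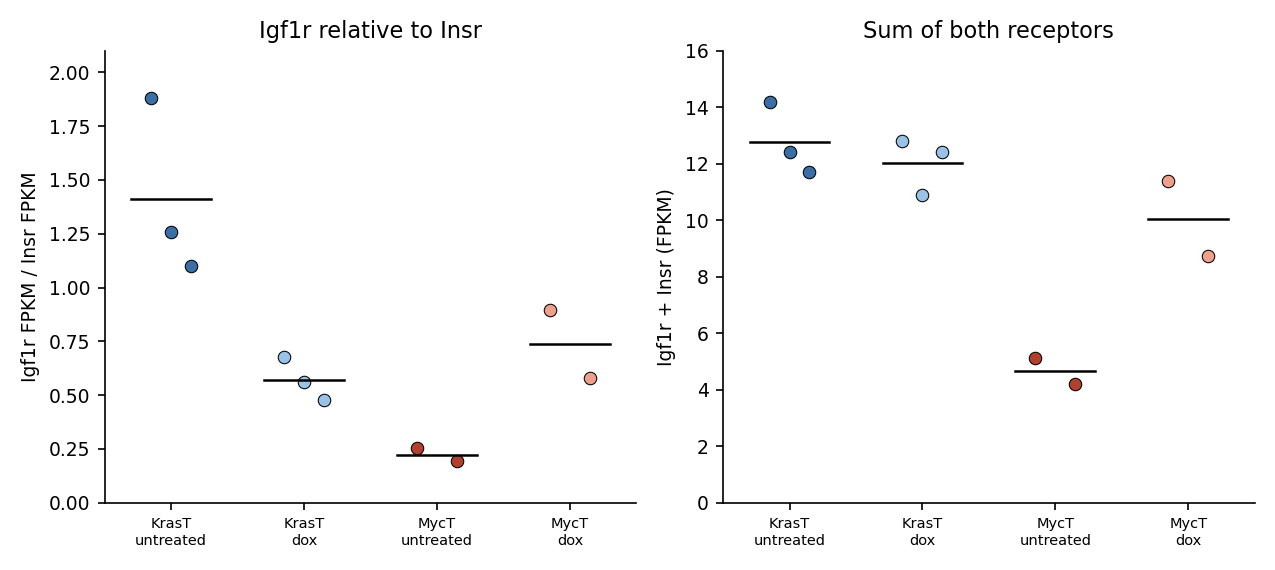
Ratio of Igf1r to Insr FPKM in every library, with points for libraries and bars for group means. KrasT libraries go from 1.1 to 1.88 untreated to 0.476 to 0.677 after doxycycline, and MycT libraries from 0.193 and 0.254 to 0.581 and 0.895.

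Igf2r, the clearance receptor of IGF2, was similar in all groups. It ranged from 6.17 to 9.73 FPKM in untreated and 6.5 to 13.5 FPKM in doxycycline KrasT libraries, and from 7.79 to 9.79 FPKM over the 4 MycT libraries. Its groups overlapped in both models (limma adjusted p = 0.789 and 0.926). The antisense RNA Airn, which overlaps Igf2r, was 2.9 to 14.8 FPKM over the 10 libraries, and without known strand use the reads of this pair cannot be told apart either. Ghr was 24.1, 13.1 and 13.6 FPKM in untreated KrasT, and 49.4, 15.9 and 12.9 FPKM after doxycycline. Replicate 1 stood out in both KrasT groups, and the groups overlapped. Doxycycline replicate 1 also had the highest adipocyte, fibroblast and macrophage sums of the KrasT libraries and high Rn45s. In MycT Ghr was 2.5 and 8.67 FPKM untreated and 18.2 and 21.9 FPKM after doxycycline. The groups did not overlap, and the log2 change of 1.85 ± 0.57 did not pass (limma adjusted p = 0.108).

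Among the adaptors, Grb10 rose in KrasT. It was 2.78, 1.46 and 1.5 FPKM untreated and 20.7, 13.4 and 21.9 FPKM after doxycycline. The groups were far apart, with means of 1.91 ± 0.75 and 18.7 ± 4.57 FPKM (SD, n = 3 each) and a 9.77-fold difference. The log2 change was 2.76 ± 0.32 (limma adjusted p = 0.00753). The call was lost without untreated replicate 3 (2.66) and without doxycycline replicate 3 (2.63), at an adjusted p of at most 0.0704. In MycT the untreated libraries disagreed by far, with 68.0 FPKM in replicate 2 and 4.62 FPKM in the unnumbered library, around doxycycline values of 11.8 and 12.1 FPKM. The change in MycT (-0.61 ± 1.22) therefore took its sign from which untreated library was kept: -2.42 without the unnumbered library and 1.2 without replicate 2.

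Irs1, the adaptor both receptors use, was 2.41, 1.86 and 0.931 FPKM in untreated KrasT and 5.45, 4.53 and 4.04 FPKM after doxycycline. In MycT it was 1.35 and 0.202 FPKM untreated and 3.4 and 2.42 FPKM after doxycycline. All doxycycline libraries were the higher ones in both models. The log2 changes were 1.08 ± 0.30 in KrasT (limma adjusted p = 0.0517) and 1.21 ± 0.46 in MycT (0.151), so neither passed. The KrasT change passed without untreated replicate 1 (1.26, limma adjusted p = 0.0189). Irs2, a second adaptor, was 0.579, 2.93 and 3.19 FPKM untreated and 3.94, 1.47 and 1.74 FPKM after doxycycline in KrasT. Its groups overlapped, with the lowest value in untreated replicate 1 and the highest in doxycycline replicate 1. In MycT it was 0.722 and 0.495 FPKM untreated and 0.997 and 1.76 FPKM after doxycycline, too low for the filter of that table.

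Counted over the 9 genes, 2 were called in KrasT (Igf1 and Grb10, both higher) and 0 were called lower. Over all 12696 genes tested there, 16.7% were called, 8.46% as higher and 8.25% as lower after doxycycline. For 5 genes (Igf1, Igf2, Insr, Irs1 and Grb10) every doxycycline library was above every untreated one, and for Igf1r every one was below. Over all genes these patterns held for 16.8% and 23.0%. The median log2 change of the 9 was 0.46, against -0.10 over all genes. In MycT limma called 0 of the 8 genes tested, against 0.039% of 12834 genes. Igf1, Igf1r and Ghr had an unadjusted p under 0.05, as did 33.4% of all genes. The fit over both tables called 2 of 9 in MycT, both higher, against 18.3% of all genes called and 6.92% called higher. All doxycycline libraries were above all untreated ones for 6 of the 9 genes and below for 0, against 31.9% and 32.8% of all genes tested. The median change was 0.85 over the 8 tested, against 0.04.

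**Figure D3:**
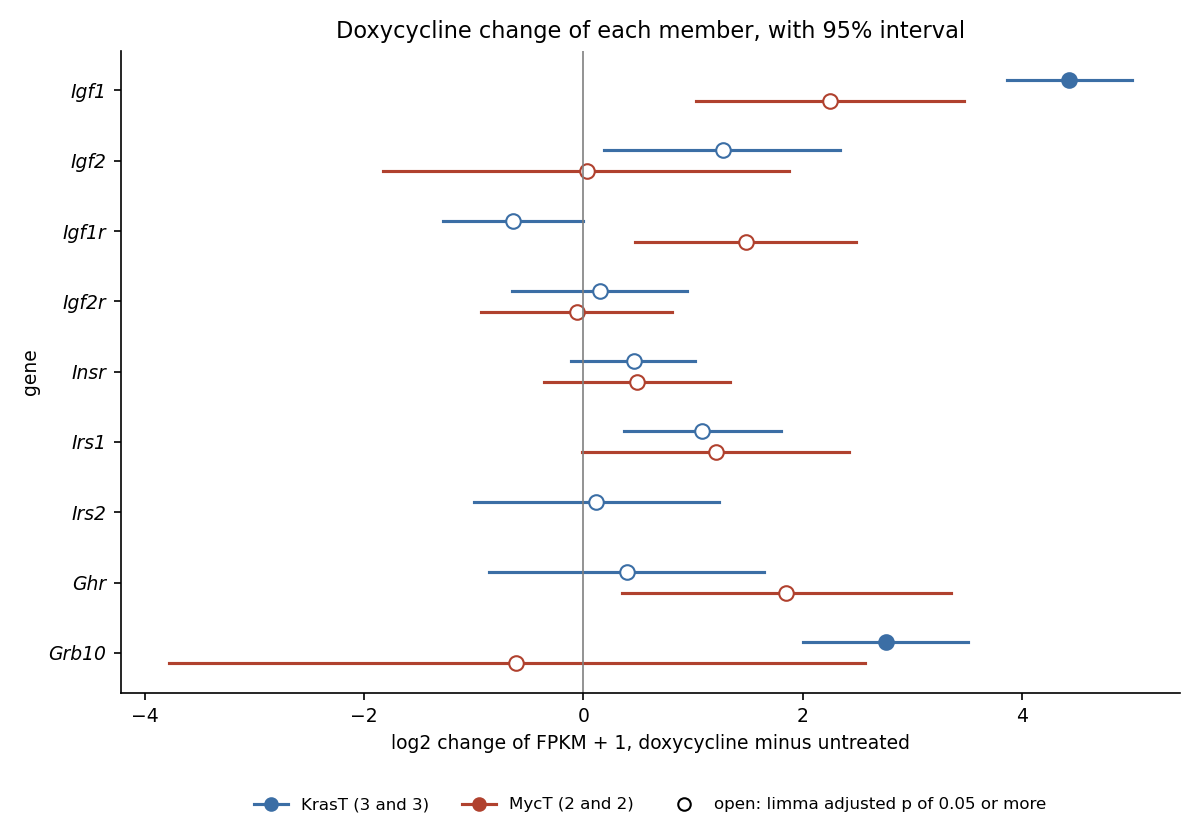
Log2 change of FPKM + 1 (doxycycline minus untreated) of each gene with its 95% interval, KrasT in blue and MycT in red, filled where the limma adjusted p was under 0.05. Igf1 and Grb10 in KrasT are filled, at 4.43 and 2.76, and Igf1r lies at -0.64 in KrasT and 1.48 in MycT.

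The difference between models was tested as the MycT change minus the KrasT change, since levels cannot be tested across separately deposited tables. It was 2.13 ± 0.44 for Igf1r (95% interval 1.14 to 3.11) and -2.17 ± 0.47 for Igf1 (-3.23 to -1.12). Their limma adjusted p values were 0.0622 and 0.0645, so neither passed. For Grb10 the difference was -3.36 ± 1.19 (limma adjusted p = 0.17), and it was -5.17 without the unnumbered library (adjusted p = 0.00739). Without KrasT untreated replicate 1, Igf1r (1.98) and Igf1 (-2.10) passed as well, at 0.025 and 0.0306. In all, 0 of the 9 genes were called and 3 had an unadjusted p under 0.05, against 0.821% and 19.8% of 13886 genes. For Insr the difference was 0.04, with an interval from -0.74 to 0.81, and for Irs1 0.12, from -1.08 to 1.33.

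Levels also changed rank. In untreated KrasT the order by mean FPKM was Ghr, Igf2r, Igf1r, Insr, Irs2, Grb10, Irs1, Igf1 and Igf2. Ghr, Igf1r and Insr lay apart from the gene below them, and the other neighbours overlapped in range. After doxycycline Igf1 was first, followed by Ghr, Grb10, Igf2r, Insr, Irs1, Igf1r, Igf2 and Irs2, and of these neighbours only Insr and Irs1 lay apart. The ratio of Igf1 to Igf1r in KrasT was 0.091 to 0.188 untreated and 9.16 to 10.5 after doxycycline. The same ratio overlapped between MycT groups, with 1.53 and 3.13 untreated and 1.59 and 5.7 after doxycycline. In untreated MycT Grb10 and Igf2r led the order by mean, with overlapping ranges. Grb10 led there only through replicate 2, at 68.0 FPKM against 4.62 FPKM in the unnumbered library. After doxycycline Ghr and Igf1 led, with overlapping ranges.

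Fibroblasts and macrophages are known to make Igf1, and genes of both cell types were also higher after doxycycline, as were those of other cell types given below. The 18 fibroblast genes, led by collagens and the matrix proteoglycan Dcn, summed to 1890, 706 and 766 FPKM in untreated KrasT and to 11200, 4820 and 5110 FPKM after doxycycline. Of these, 13 of 18 were called higher and 0 lower, against 8.46% and 8.25% of all genes, with a median log2 change of 3.31. On the log2(FPKM + 1) scale, which understates changes of low genes such as Igf1, 6 had a larger change than Igf1. By fold of means Dcn (36.5) and Lum (19.4), of these 6, were below Igf1 (41.3), and the others were not. Without 1 library the count of called genes ran from 5 (without doxycycline replicate 3) to 14 (without untreated replicate 1), and it was 6 without untreated replicate 3, 7 without untreated replicate 2 and 8 without doxycycline replicate 1. In MycT the sums were 75.4 and 603 FPKM untreated and 2120 and 3270 FPKM after doxycycline. On the log2(FPKM + 1) scale the median change there was 3.17, and 16 of 18 changed by more than Igf1. By fold of means fewer of the 18 were above Igf1 (7.2), so this count depends on the scale. Of the most abundant, Dcn (24.3) and Col1a1 (9.2) were above Igf1, and Col1a2 (6.77) and Col3a1 (3.71) below. The fit over both tables called 11, against 6.92% of all genes called higher, and limma called 0 of 18 within the MycT table. The count was 14 without the unnumbered library.

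Macrophage sums were apart between the KrasT groups and overlapped between the MycT groups, where most of each sum was Lyz2, a lysozyme gene. Lyz2 was 1070 and 2900 FPKM in untreated MycT and 1860 and 4150 FPKM after doxycycline. The 16 genes, with lysozyme and complement C1q genes the most abundant, summed to 1600, 213 and 282 FPKM in untreated KrasT and 6860, 1810 and 3000 FPKM after doxycycline. Untreated replicate 1, the least like its group, and doxycycline replicate 2 had nearly the same macrophage sum. Single genes of the list differed in either direction between these 2 libraries, such as Csf1r (13.3 and 26.6 FPKM) and C1qa (394 and 263 FPKM). Igf1 was 0.843 and 38.9 FPKM in them, and the part of macrophages in this was not tested. Of 15 tested genes 3 were called higher in KrasT, against 8.46% of all genes. The count was 11 without untreated replicate 1, and 0 without untreated replicate 2, untreated replicate 3, doxycycline replicate 1 or doxycycline replicate 3. The median log2 change was 1.98, and none exceeded that of Igf1, while 3 of 15 did in MycT. By fold of means, of these 3, Csf1r (6.51) and Mrc1 (6.79) were below Igf1 (7.2) and Marco (30.2) was above. All doxycycline libraries were above all untreated ones for 6 of the 16 genes in KrasT and 12 of 16 in MycT, against 16.8% and 31.9% of all genes tested. In MycT the sums were 1570 and 3760 FPKM untreated and 3060 and 6780 FPKM after doxycycline, and limma called 0 of 15. The fit over both tables called 2 of 16, both higher, against 6.92% of all genes called higher. No gene of either list was at 0 throughout a group.

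KrasT untreated replicate 1 had the highest fibroblast and macrophage sums of its group and the lowest Igf1. Set against the fibroblast sum, Igf1 was 0.0446% to 0.158% in untreated and 0.422% to 0.825% in doxycycline KrasT libraries. In MycT this share was 2.11% and 0.353% untreated and 0.403% and 0.557% after doxycycline, so the groups overlapped. Against the macrophage sum the groups were apart in both models, with 0.0527% to 0.523% and 0.692% to 2.16% in KrasT, and 0.0567% and 0.102% and 0.269% and 0.28% in MycT. Among doxycycline libraries Igf1 varied 1.22-fold in KrasT, while the fibroblast sum varied 2.33-fold and the macrophage sum 3.8-fold. In MycT these spreads were 2.13-fold, 1.54-fold and 2.22-fold. The doxycycline libraries took the order of Igf1 for 13 of 16 macrophage and 9 of 18 fibroblast genes in KrasT, and for 16 of 16 and 15 of 18 in MycT. With 2 doxycycline libraries in MycT a gene can only have this order or its reverse. The share of all genes with these orders was not counted in either model. The part of either cell type in the Igf1 change was not tested.

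**Figure D4:**
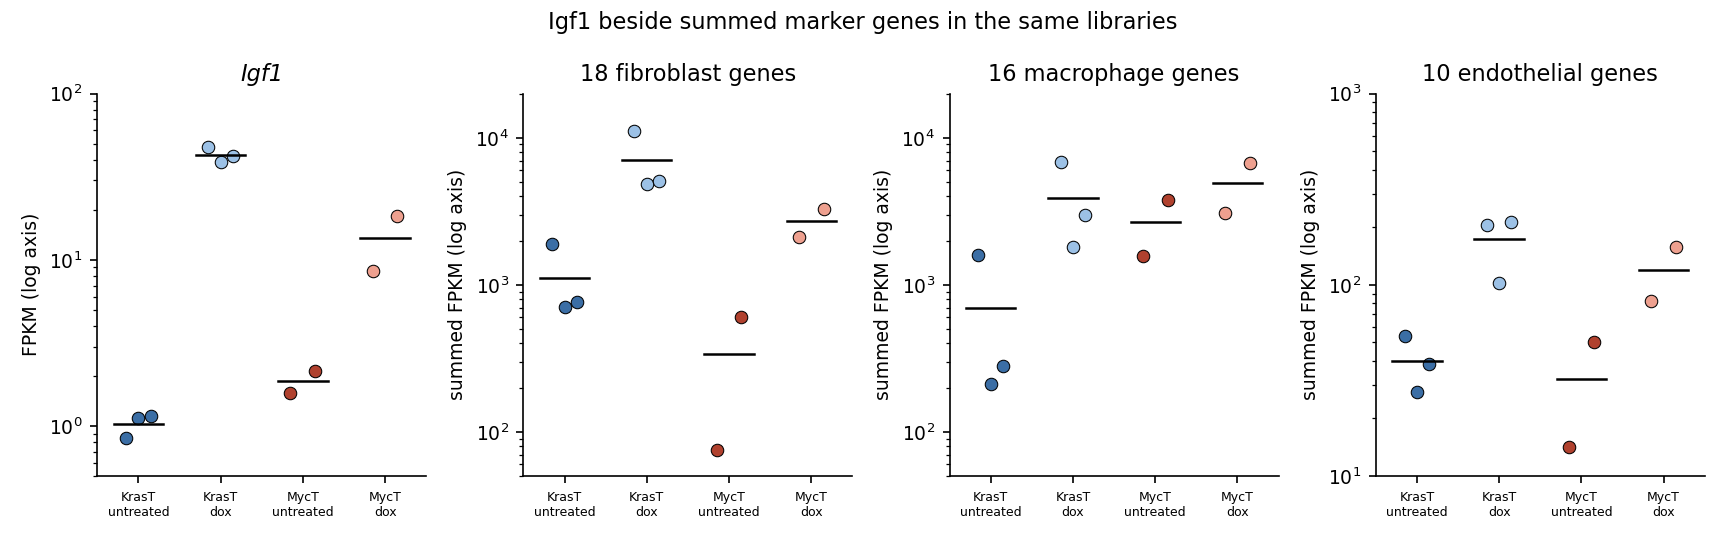
Igf1 FPKM and the summed FPKM of 18 fibroblast, 16 macrophage and 10 endothelial genes in every library (log axes), with points for libraries and bars for group means. Macrophage sums of the MycT groups overlap (1570 and 3760 against 3060 and 6780 FPKM), with Lyz2 most of each sum. For 12 of the 16 macrophage genes, and for Igf1, the MycT groups do not overlap.

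Other cell types moved as well. In KrasT all 10 epithelial genes had a negative change (median -1.68). The keratins Krt8 (-3.09) and Krt18 (-3.60) were called lower, 2 of 10 against 8.25% of all genes. Each was called in only 1 of 6 fits without 1 library. The other epithelial genes did not pass (limma adjusted p of 0.193 or more). Adipocyte genes summed to 46.4 to 72.5 FPKM in untreated KrasT and to 202 to 3100 FPKM after doxycycline. Of 6 tested there, 3 were called higher (Fabp4, Cfd and Lpl), against 8.46% of all genes. In MycT adipocyte genes summed to 130 and 110 FPKM untreated and 467 and 1610 FPKM after doxycycline. Hepatocyte genes, from the main source of circulating IGF1, summed to 1.02 to 16.1 FPKM in untreated and 49.6 to 140 FPKM in doxycycline KrasT libraries, with Cyp3a11 and Serpina1a at 0 in all untreated ones. Nearly all of the doxycycline sum was Ttr, the transthyretin gene that islets also express, at 41.7, 125 and 136 FPKM. Islet genes summed to 7540, 48.9 and 2550 FPKM in these libraries, an order other than that of Ttr, and the source of Ttr was not tested. Albumin (Alb) was called higher too, at 2.33 to 6.9 FPKM after doxycycline. Means of Apob (3.11 and 1.10 FPKM) and Apoa1 (1.88 and 0.54 FPKM) were lower after doxycycline with overlapping groups, and Cyp3a11 was at 0 in all but 1 doxycycline library. Hepatocyte sums in MycT were 7.05 and 10.9 FPKM untreated and 5.17 and 55.4 FPKM after doxycycline. Skeletal muscle genes reached 6600 FPKM in KrasT doxycycline replicate 2 and 8410 FPKM in MycT doxycycline replicate 1, the libraries with the lowest Igf1 of their groups. Endothelial sums were 27.6 to 54.1 FPKM and 102 to 213 FPKM in KrasT, and 14.2 and 50.4 and 81.9 and 157 FPKM in MycT. In KrasT 8 of 10 endothelial, 4 of 8 smooth muscle and pericyte, and 3 of 6 neutrophil genes were called higher. Their median log2 changes were 1.86, 1.89 and 1.84. So were 3 of 8 islet and 1 of 2 B cell genes called higher, against 8.46% of all genes. T and NK cell, acinar and skeletal muscle genes had 0 calls. Within the MycT table limma called 0 genes of each of these lists. The part of these cell types in the change of the 9 genes was not tested.

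By the smallest root mean square difference over the 10 libraries, on log2(FPKM + 1) values set against the untreated mean of the own model, the genes most like Igf1 among 11469 ranked were Cma1 (0.333), Olfml1 (0.37), C4b (0.511), Tpsb2 (0.546) and Prelp (0.549). Cma1 and Tpsb2 encode the mast cell proteases chymase and tryptase, C4b a complement component and Prelp a matrix proteoglycan. Cma1 was at most 0.233 FPKM in untreated KrasT and 19.4, 38.4 and 24.9 FPKM after doxycycline. In MycT it was 0.0776 and 0.0839 FPKM untreated and 2.93 and 6.75 FPKM after doxycycline. By fold of means it rose 268-fold in KrasT and 59.9-fold in MycT, against 41.3-fold and 7.2-fold for Igf1. The measure used here understates such changes of genes near 0, and it also sets apart genes that changed by more than Igf1. The best ranked fibroblast gene was Fbln1, at rank 14 (0.703), and the best ranked macrophage gene was Csf1r, at rank 104 (1.07). Most like Igf1r were Tmem43 (0.202), Tmem2 (0.236), Prmt2 (0.237), Vcl (0.253) and Ppp3ca (0.273). Vcl, the focal adhesion protein vinculin, was 47.5 to 53.2 FPKM untreated and 23.0 to 32.8 FPKM after doxycycline in KrasT. Its MycT mean was 9.49 ± 0.727 FPKM without and 25.2 ± 7.17 FPKM with doxycycline (SD, n = 2 each), so its groups had the same opposite orders as Igf1r.

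IGF binding proteins hold IGFs in the extracellular space. The list counted here, of IGF binding and release, also holds genes other than binding proteins. In KrasT 3 of its 8 tested genes were called higher and 0 lower, against 8.46% and 8.25% of all genes. Their median log2 change, over all 8, was 1.08. Igfbp6, which prefers IGF2, was 17.5, 2.26 and 6.59 FPKM untreated and 147, 108 and 252 FPKM after doxycycline (log2 change 4.37, limma adjusted p = 0.0122). Igfbp5 went from 16.3 ± 6.98 to 109 ± 9.43 FPKM (SD, n = 3 each, 2.76, limma adjusted p = 0.00978), and Igfbp7 from 310 ± 103 to 1140 ± 312 FPKM (1.89, limma adjusted p = 0.0196). Igfbp3, the main carrier of IGF1 in blood, was lower in every doxycycline library, with 1140, 429 and 282 FPKM untreated and 124, 184 and 213 FPKM after doxycycline, and did not pass (limma adjusted p = 0.081). In MycT limma called 0 of 7 (2 of 8 in the fit over both tables, both higher, against 6.92% of all genes called higher). The smallest p there were those of Igfbp6, at 1.62 and 14.1 FPKM untreated and 57.6 and 119 FPKM after doxycycline, and of Igfbp4, at 54.9 and 92.4 FPKM and 171 and 417 FPKM.

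The insulin genes Ins1 and Ins2 were high in some doxycycline libraries, together with other islet genes. Ins2 was 5560 FPKM in KrasT doxycycline replicate 1, 1820 FPKM in replicate 3 and 4.58 FPKM in replicate 2, against at most 47.3 FPKM untreated. Igf1 had the same order in these libraries over a far narrower range, at 47.5, 42.1 and 38.9 FPKM. For MycT, Ins2 was listed at 0 and 0.916 FPKM without doxycycline and at 12.7 and 557 FPKM with it. This was again the order of Igf1, in only 2 doxycycline libraries. So few libraries allow few orders, and the share of all genes with the order of Igf1 was not counted in either model. A link between Ins2 and Igf1 was not tested. Of the 5 tested insulin ligands and relatives 0 were called by limma in either model.

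Downstream of the receptors, calls in KrasT went in both directions. Over all pathway lists, binding proteins included, 15 of 88 different tested genes were called, or 17.0%, against 16.7% of all genes, a share near the background. Of 18 receptor-proximal adaptors and phosphatases, 2 were called higher in KrasT (Grb14, a relative of Grb10, 1.72, and Gab1, a docking protein, 1.26) and 1 lower (Crk, -0.99), with a median of 0.21. Of 33 genes of the PI3K-AKT arm, Pik3r1 (2.02) and Pik3cd (2.01), which encode PI3K subunits, were called higher and Ddit4 (-1.60) and Eif4ebp1 (-1.45) lower, with a median of 0.02. Pik3r1, the regulatory subunit that IRS proteins recruit, was 4.46, 5.01 and 4.59 FPKM untreated and 29.7, 16.8 and 21.3 FPKM after doxycycline (limma adjusted p = 0.0108). Of 17 FOXO-linked genes, 3 were called higher (Sesn1 2.47, Klf15 2.19, Txnip 1.28) and 1 lower (Ccng2, -1.39), with a median of 0.30. Of 8 genes of the growth hormone to STAT5 arm, Stat5b was called higher, at 3.57, 5.36 and 5.0 FPKM untreated and 10.5, 10.6 and 9.63 FPKM after doxycycline (1.01, limma adjusted p = 0.0408). The 15 pathway calls became 30 without untreated replicate 1, 2 without untreated replicate 2, 1 without untreated replicate 3, 2 without doxycycline replicate 1, 6 without doxycycline replicate 2 and 0 without doxycycline replicate 3.

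In MycT limma called 0 genes of these 4 downstream lists within the table. The fit over both tables called 1 of 19, 4 of 33, 4 of 18 and 1 of 9 as higher and 0 as lower. Over all genes this fit called 18.3%, and 6.92% as higher. Bcl6 is in both the FOXO-linked and the growth hormone lists, so these counts are not all of different genes. Pik3cd, the leukocyte PI3K catalytic subunit, was 0.484 and 1.56 FPKM untreated and 5.18 and 12.4 FPKM after doxycycline (log2 change 2.22, limma adjusted p = 0.081 within the table). Fbxo32, a ubiquitin ligase gene that FOXO factors drive in muscle, was 1.97 and 1.89 FPKM untreated and 11.6 and 8.49 FPKM after doxycycline. Socs3, an inhibitor of cytokine receptor signalling, was 2.83 and 8.78 FPKM untreated and 24.2 and 24.5 FPKM after doxycycline. In KrasT Socs3 lay at 12.2, 54.9 and 51.7 FPKM untreated and 14.4, 21.6 and 15.7 FPKM after doxycycline, with overlapping groups.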

How the data were processed

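The authors deposited 1 table of FPKM values per model, with 1 column per library. The submitters' processing notes name cutadapt, TopHat and the mm9 build. Which program and annotation gave FPKM, and if counting used strand, was not given in the sources used here. Rows with dates for symbols (27 in each table) were left out. Columns were matched to labels by animal number, and 1 untreated MycT column with an unmatched number was used by its group.

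Genes with at least 1 FPKM in 3 KrasT or 2 MycT libraries (2 of either table for the difference) were tested on log2(FPKM + 1) with limma 3.58.1 in R 4.3.3, two-sided, with a trend, with a call at p under 0.05 after Benjamini-Hochberg adjustment over all genes tested. The difference between models was the interaction in 1 fit of both tables, which also gave the joint MycT test. Exact permutation reaches 0.1 (3 against 3) or 0.333 (2 against 2) at best. The steps were tested on simulated data. Alternatives were a pseudocount of 0.1, other filters, 2 other scalings, left-out libraries and the joint fit.

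Members and gene lists were chosen with earlier results of these data known. Beyond the members, the rule names up to 3 called genes per direction and pathway list (or the 2 of smallest p), the most abundant markers and the 5 genes most like each of Igf1 and Igf1r, predicted and small RNA genes left out. Igfbp3, Fbln1, Lum, Csf1r, Mrc1, Marco, Lpl, Cyp3a11, Serpina1a, Apob, Apoa1, Airn, Igf2os, Rn45s and the KrasT values of Socs3 were added after their values were seen. Promoters are from RefSeq (GRCm38.p6), for 8 of the 9 members. Python 3.11.15 with matplotlib 3.10.9 drew the figures.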

Additional observations from a re-analysis of the deposited data

Results flagged for a closer look

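Igf1r was lower in all 3 KrasT doxycycline libraries than in any untreated one and higher in both MycT doxycycline libraries than in either untreated one. The MycT change minus the KrasT change was 2.13 on the log2 scale, with a limma adjusted p of 0.0622, so the difference was tested and did not pass.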

How the results depend on the processing

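The count of called members in KrasT was 2 and ran from 1 to 3 over fits without 1 library (Irs1 added without untreated replicate 1). In MycT it was 0, it was 2 in the joint fit, and it ran from 0 to 2 without 1 library (Ghr and Grb10 without the unnumbered one). In the difference between models it was 0 and ran from 0 to 2. Over all members and alternatives, a change kept its direction and call 280 times, changed sign 21 times, newly passed 9 times and no longer passed 2 times. The sign changed in KrasT for Irs2 under quantile normalization (-0.33) and without 1 library for Igf2r (-0.11 to 0.37), Irs2 (-0.33 to 0.37) and Ghr (-0.18 to 0.75). In MycT it changed for Igf2 under quantile normalization (-0.32), for Igf2r under median-ratio scaling (0.14), and without 1 library for Igf2 (-0.75 to 0.62), Igf2r (-0.20 to 0.08) and Grb10 (-2.42 to 1.2). In the difference it changed for Insr under median-ratio scaling (-0.02) and quantile normalization (-0.11), and without 1 library for Igf2r (-0.42 to 0.05), Insr (-0.05 to 0.12) and Irs1 (-0.36 to 0.61). None of these was called in the fit as reported, and the cause was not tested. Irs1 in KrasT passed under median-ratio scaling (1.28) and without untreated replicate 1 (1.26). That scaling moved the median of all genes by 0.24 in KrasT, with 1302 genes called higher and 492 lower in place of 1074 and 1047, and by 0.18 in MycT. Genes called over all of KrasT (2121) ran from 43 without doxycycline replicate 3 to 4176 without untreated replicate 1 and were 1081 under quantile normalization. In MycT they were 5, and 2540 in the joint fit, 1293 without the unnumbered library, 9 without doxycycline replicate 1 and 0 without each of the others or without the filter. In the difference they were 114, and ran from 4 without MycT doxycycline replicate 2 to 1693 without KrasT untreated replicate 1, with 24 at a pseudocount of 0.1, 66 under median-ratio scaling, 29 with the filter passed in both tables and 1 without the high-Rn45s libraries. Pathway calls in KrasT were 7 under quantile normalization, and in MycT 11 in the joint fit and 10 without the unnumbered library. No paired analysis was possible because every tumour has an animal number of its own and no shared replicate number. The filter passed in both tables, the joint fit without 1 library and the left-out counts of marker lists were chosen after seeing the data. The read depth is unknown, so low values such as those of Igf2 and Irs2 carry no counting interval.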
